A study of Arabidopsis thaliana with 18 samples.

Results

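The comparison described here set developing seeds of a badc1/badc3 T-DNA insertion mutant of Arabidopsis thaliana (condition tDNA) against developing seeds of wild type Col-0. Its members are 6 of the 18 samples of the series, taken from the first of the deposited tables by their condition, with 3 libraries named tDNA replicates 0, 1 and 2 and 3 named Col-0 replicates 0, 1 and 2. The mutant came from crosses of T-DNA lines and is labelled a double knockout of BADC1 and BADC3. Plants of both genotypes grew in a chamber with long days, seeds were taken 9 to 10 days after flowering, and polyA RNA was sequenced. The labels name no further transgene, allele or agent in these groups, and do not say whether the libraries of a group came from separate plants. The study asked which changes in metabolism accompany the loss of BADC1 and BADC3, a loss that raises seed oil.

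Plastids make fatty acids from pyruvate, and the first committed step is the carboxylation of acetyl-CoA by a multisubunit acetyl-CoA carboxylase. Its biotin carrier subunit, BCCP, carries the carboxyl group. BADC proteins resemble BCCP but hold no biotin, take its place in the complex and lower its activity. In the seed, the transcription factor WRI1 switches on genes of the glycolytic route to pyruvate and of fatty acid synthesis, and the embryo stores the product as triacylglycerol in oil bodies beside its storage proteins.

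The 6 libraries hold 5 distinct ones, because replicate 2 of each condition held the same fragments. Among the 33188 loci with an estimate in all 6 libraries, tDNA replicate 2 and Col-0 replicate 2 differed by at most 0.01 fragments at 33185. For tDNA replicates 0 and 1 this count was 10747, and for Col-0 replicates 0 and 1 it was 11276. Of the loci without such an estimate, AT1G62080 was listed at 163488 fragments in tDNA replicate 2 and 0 in Col-0 replicate 2. It was listed at 270640 and 223700 in tDNA replicates 0 and 1, and at 0 in Col-0 replicates 0 and 1. The library repeated as replicate 2 is called the library under both labels here. The labels cannot place it, so the test used tDNA replicates 0 and 1 against Col-0 replicates 0 and 1 (2 libraries per group), and results with it are given beside. Totals ranged from 9546528 to 11574156 fragments per library. Of 11923 loci with at least 10 CPM (fragments scaled by the TMM-adjusted library total), 4.30% differed more than 2-fold between tDNA replicates 0 and 1, and 0.436% did so between Col-0 replicates 0 and 1. Between a tDNA and a Col-0 library the share was 6.51% to 11.9%. The library under both labels differed from tDNA replicate 1 at 6.04% of these loci, from tDNA replicate 0 at 12.1%, and from the Col-0 libraries at 13.3% and 13.6%. The Col-0 pair was thus the closest of all pairs, and the library under both labels stood nearest to tDNA replicate 1.

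**Figure D1:**
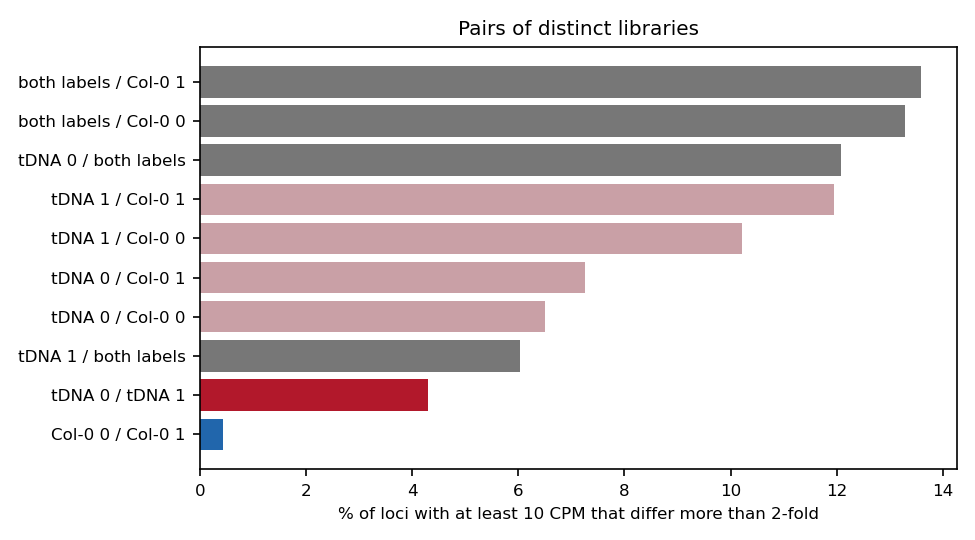
Share of loci with at least 10 CPM that differed more than 2-fold between the libraries of each pair, in percent (x axis), with pairs on the y axis sorted from the highest share to the lowest. Red is the tDNA pair, pink a tDNA with a Col-0 library, grey any pair with the library under both labels and blue the Col-0 pair, whose bar of 0.436% is the shortest.

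The embryo was well represented in the samples. The 9 storage protein genes of the marker list that could be counted summed to 96030 and 73000 CPM in tDNA replicates 0 and 1, 97917 and 95232 CPM in Col-0 replicates 0 and 1, and 41462 CPM in the library under both labels. The 5 oil body genes summed to 27718 and 19406 CPM in the tDNA libraries, 26376 and 26813 CPM in the Col-0 libraries and 13055 CPM in the library under both labels. The library under both labels was the lowest for both lists. The 10 silique wall markers, from the fruit tissue around the seeds, summed to 237 and 327 CPM in tDNA libraries, 249 and 253 CPM in Col-0 libraries and 421 CPM in the library under both labels. In bulk RNA, fewer cells of a type and less RNA per cell cannot be told apart. In each of the 6 libraries, 3 of the 12 endosperm markers (MINI3, EXPA2 and ESF1) were at 0, and the 12 summed to 5740.5 and 6634.7 CPM in tDNA libraries, 5312.7 and 6032.1 CPM in Col-0 libraries and 3465.9 CPM in the library under both labels.

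Both targeted genes were low in tDNA replicates 0 and 1, and neither was low to that degree in the library under both labels. BADC3 is AT3G15690, on chromosome 3 from 5316916 to 5320121 in RefSeq coordinates. It had 6.39 and 3.16 CPM in the tDNA libraries, against 84.0 and 86.8 CPM in the Col-0 libraries and 61.0 CPM in the library under both labels. It fell 17.9-fold in the mutant (log2 fold change −4.16 ± 0.30 (SE), adjusted p = 0.00849 by edgeR's quasi-likelihood test with Benjamini-Hochberg adjustment, as for all adjusted p-values below unless another tool is named). BADC1 was deposited as 1 locus merged with its neighbour AT3G56140, and this locus had 30.8 and 34.4 CPM in the tDNA libraries, against 94.0 and 94.5 CPM in the Col-0 libraries. It fell 2.89-fold (−1.53 ± 0.14, adjusted p = 0.00985), and how much of the remainder belongs to the neighbour cannot be read from a merged count. The library under both labels held 71.4% of the Col-0 mean of BADC3 and 100.7% of that of the BADC1 locus, so for the BADC1 locus it lay with Col-0. BADC2, the untargeted relative, had 109 and 102 CPM in the tDNA libraries, against 203 and 210 CPM in the Col-0 libraries and 107 CPM in the library under both labels. It fell 1.96-fold (−0.97 ± 0.15, adjusted p = 0.0190), and for it the library under both labels lay with the tDNA libraries. With all 6 libraries BADC3 was at −1.70 and the BADC1 locus at −0.81 (adjusted p = 0.809 for both).

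**Figure D2:**
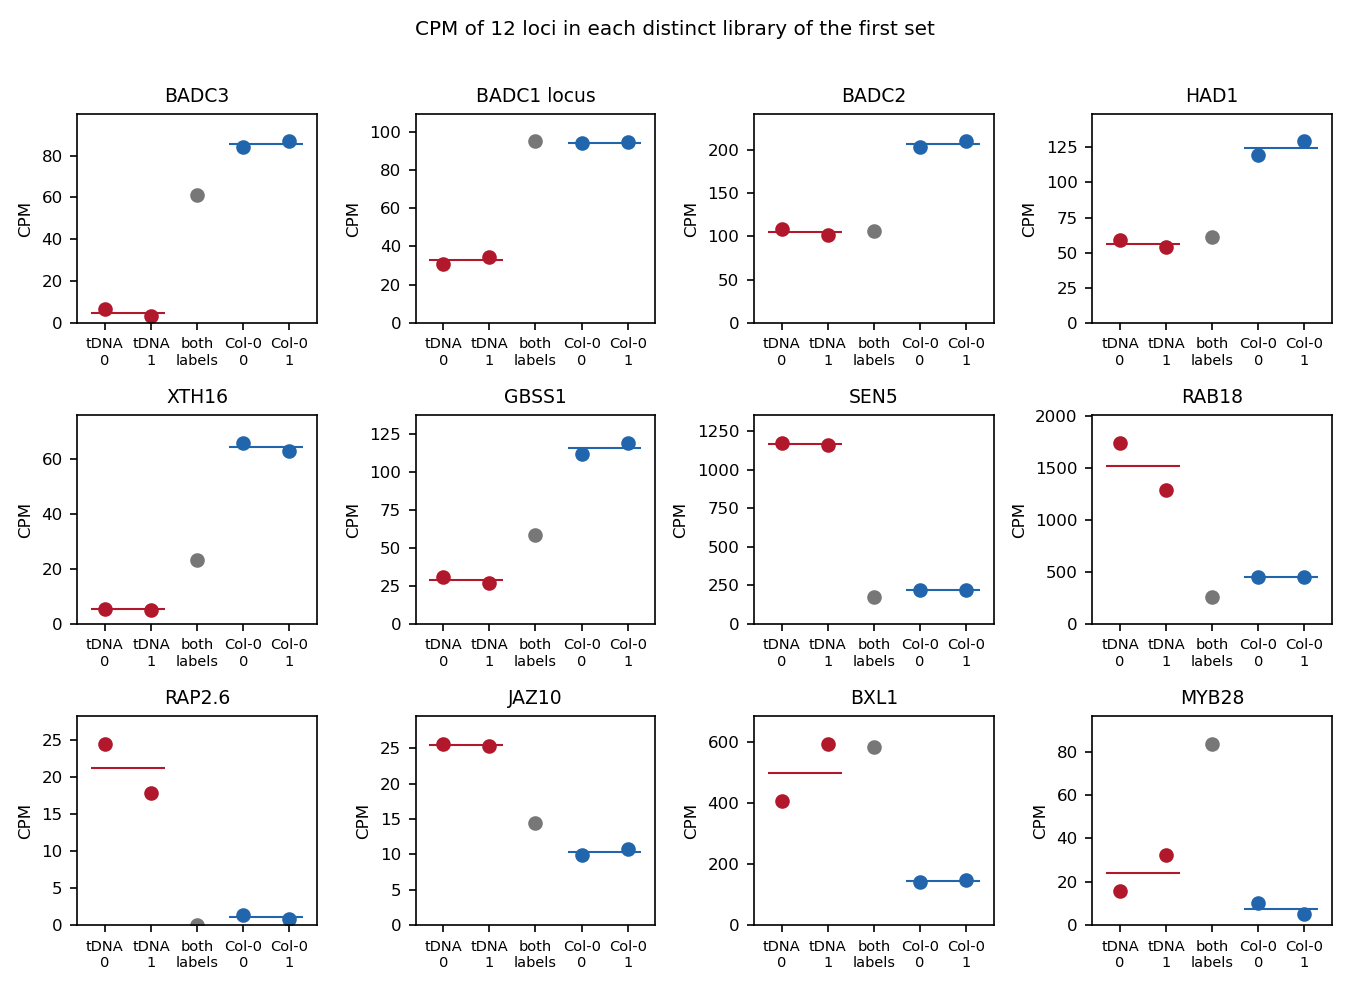
CPM (y axis, from 0) of 12 loci in each distinct library (x axis: tDNA replicates 0 and 1 in red, the library under both labels in grey, Col-0 replicates 0 and 1 in blue), with lines at the means of the tDNA and of the Col-0 pair. The pairs do not overlap for any locus shown, and the library under both labels is near Col-0 for the BADC1 locus and near the tDNA libraries for BADC2.

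Across 18518 loci tested, 1911 passed an adjusted p of 0.05 (10.3% of those tested), 967 higher (5.22%) and 944 lower (5.1%) in the mutant, with a median log2 fold change over all loci of 0.00. Both tDNA libraries lay above both Col-0 libraries at 30.9% of loci and below both at 31.6%. The calls rest on both Col-0 libraries. None of the 1911 passed without Col-0 replicate 0 (2486 loci had an unadjusted p under 0.05) or without Col-0 replicate 1 (2221 loci), when the spread came from the tDNA pair alone. The same holds for every list described below, and for each of the 103 called genes among the 165 named by rule, whose lowest adjusted p was then 0.213 and 0.0803. Without tDNA replicate 0, 7444 loci passed, 18.7% of those tested as higher and 20.6% as lower, and without tDNA replicate 1, 4922 passed, 13.7% as higher and 12% as lower. The counts per list without a tDNA library, given below for most but not all lists, are to be read against these shares. In the fits without a tDNA library the spread came from the Col-0 pair alone, and spread between mutant libraries was not measured. With all 6 libraries none passed in edgeR (1000 at an unadjusted p under 0.05), and none passed with the library under both labels counted as tDNA only (4666) or as Col-0 only (2121).

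BADC3 was among the 10 largest falls. AT2G23400, an undecaprenyl pyrophosphate synthetase family gene, had 0.304 and 0.198 CPM in the tDNA libraries, against 23.3 and 20.3 CPM in the Col-0 libraries and 10.3 CPM in the library under both labels. It fell 83.2-fold (−6.38 ± 0.30, adjusted p = 0.00576) and was nearly silent in both tDNA libraries. NIT4, a nitrilase that acts on beta-cyanoalanine, fell 6.70-fold (−2.74 ± 0.41, adjusted p = 0.0184) and, unlike AT2G23400, stood at the Col-0 level in the library under both labels (21.9 CPM, with 1.52 and 4.25 CPM in the tDNA libraries and 20.9 and 18.1 CPM in the Col-0 libraries). AGP4, an arabinogalactan protein of the cell surface, fell 9.22-fold (−3.21 ± 0.39, adjusted p = 0.0137), and CML38, a calmodulin-like calcium sensor, fell 6.64-fold (−2.73 ± 0.55, adjusted p = 0.0365). GPT2, the plastid translocator of glucose phosphate, fell 9.64-fold (−3.27 ± 0.22, adjusted p = 0.00849). AT5G05365, a gene of the heavy metal transport and detoxification family, fell 9.80-fold (−3.29 ± 0.33, adjusted p = 0.0103).

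Among the 10 largest rises, AT2G38240, a 2-oxoglutarate and iron-dependent oxygenase family gene, had 9.02 and 7.42 CPM in the tDNA libraries, against 0.280 and 0.347 CPM in the Col-0 libraries and 0.461 CPM in the library under both labels. It rose 25.2-fold (4.66 ± 0.36, adjusted p = 0.00849), with both tDNA libraries high and the other 3 near 0. RAP2.6, an ethylene response factor that answers to stress and abscisic acid, had 24.5 and 17.9 CPM in the tDNA libraries, against 1.398 and 0.782 CPM in the Col-0 libraries and 0 in the library under both labels, and rose 19.4-fold (4.28 ± 0.33, adjusted p = 0.00849). HB21, a homeodomain leucine zipper factor, rose 12.4-fold (3.63 ± 0.26, adjusted p = 0.00849). UGT76B1, a glucosyltransferase of isoleucic acid, rose 7.77-fold (2.96 ± 0.55, adjusted p = 0.0291), with 7.40 and 20.1 CPM in the tDNA libraries, against 2.14 and 1.39 CPM in the Col-0 libraries and 6.53 CPM in the library under both labels. AT4G36600, a late embryogenesis abundant domain gene, rose 7.96-fold (2.99 ± 0.25, adjusted p = 0.00952). BT2, a BTB-domain protein whose transcript responds to sugar and nitrogen, rose 7.20-fold (2.85 ± 0.32, adjusted p = 0.0119).

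Several genes of the route into fatty acids fell in the mutant and none rose. Of 10 carboxylase and BADC loci, the 3 BADC loci fell and none rose. The catalytic subunits did not pass. BCCP1 had 57.0 and 58.3 CPM in the tDNA libraries and 82.0 and 92.7 CPM in the Col-0 libraries (−0.60 ± 0.14, adjusted p = 0.0512), CAC3, the alpha subunit of the carboxyltransferase, was at −0.36, and the plastid-encoded ACCD was at 0.45 ± 0.55 with 84.7 CPM in tDNA replicate 0 and 26.1 CPM in tDNA replicate 1. Of 19 genes of plastid fatty acid synthesis, 7 fell and none rose, with a median of −0.65. Of 15 genes of plastid pyruvate supply, 5 fell and none rose, with a median of −0.48. Leaving out tDNA replicate 0, 8 carboxylase loci, 15 synthesis genes and 11 pyruvate genes passed as lower, and without tDNA replicate 1 these counts were 6, 15 and 13, with 1 carboxylase locus and 1 synthesis gene as higher.

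HAD1, a hydroxyacyl-ACP dehydratase of the elongation cycle, had 58.9 and 53.8 CPM in the tDNA libraries, against 119 and 129 CPM in the Col-0 libraries and 61.2 CPM in the library under both labels, and fell 2.21-fold (−1.14 ± 0.15, adjusted p = 0.0146). FATA1, a thioesterase that releases oleate from its carrier protein, fell 2.08-fold (−1.06 ± 0.15, adjusted p = 0.0166), and its relative FATA2 fell 1.92-fold (−0.94 ± 0.14, adjusted p = 0.0190). LPD1, the dihydrolipoamide dehydrogenase of the plastid pyruvate dehydrogenase, had 98.9 and 99.8 CPM in the tDNA libraries, against 172 and 186 CPM in the Col-0 libraries, and fell 1.80-fold (−0.85 ± 0.15, adjusted p = 0.0249). ENO1, the plastid enolase, fell 1.64-fold (−0.71 ± 0.14, adjusted p = 0.0364). The library under both labels lay closer to the tDNA than to the Col-0 libraries for HAD1, FATA1, FATA2, LPD1 and ENO1. WRI1 had 61.8 and 48.0 CPM in the tDNA libraries, against 163 and 178 CPM in the Col-0 libraries and 107 CPM in the library under both labels (−1.63 ± 0.18, adjusted p = 0.0114). Its relatives WRI2, WRI3 and WRI4 did not pass (0.14, −0.08 and 0.72, lowest adjusted p = 0.126).

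Oil assembly changed in both directions, and the major oil body proteins did not pass. Of 14 genes of triacylglycerol assembly, 2 rose and 2 fell. ROD1, which moves polyunsaturated acyl groups into diacylglycerol, fell 1.85-fold (−0.89 ± 0.14, adjusted p = 0.0214), and FAE1, which elongates fatty acids to very long chains, fell 1.69-fold (−0.76 ± 0.17, adjusted p = 0.0424). PDAT1, an acyltransferase that makes triacylglycerol from phospholipid, rose 1.87-fold (0.90 ± 0.17, adjusted p = 0.0318), with 16.8 and 19.6 CPM in the tDNA libraries, against 9.32 and 10.2 CPM in the Col-0 libraries and 24.9 CPM in the library under both labels. PAH2, a phosphatidate phosphatase, rose 1.72-fold (0.78 ± 0.15, adjusted p = 0.0307). SEIPIN1, a protein of oil body formation, was the 1 of 5 oil body genes to pass and rose 2.25-fold (1.17 ± 0.15, adjusted p = 0.0146). The oleosin OLEO3 had 1569 and 778 CPM in the tDNA libraries, against 2012 and 2189 CPM in the Col-0 libraries (−0.84 ± 0.35, adjusted p = 0.163), so the tDNA pair differed between its libraries by as much as one of them from Col-0. Among assembly genes, 6 passed as higher and 2 as lower without tDNA replicate 0, and 4 and 6 without tDNA replicate 1. Among oil body genes, the counts were 1 and 4 without tDNA replicate 0 and 1 and 1 without tDNA replicate 1.

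None of the 9 storage protein genes passed (median 0.10). SESA4, a 2S albumin, had 9838 and 6507 CPM in the tDNA libraries, against 19650 and 16980 CPM in the Col-0 libraries and 5412 CPM in the library under both labels (−1.16 ± 0.31, adjusted p = 0.0665, whereas DESeq2 gave 0.000114). The cruciferin genes CRA1 and CRUCIFERIN-C and the albumin SESA3 had no usable estimate and were listed at 0 in all 6 libraries. None of 14 genes of protein folding and storage protein processing passed, while 3 passed as higher without tDNA replicate 0 and 2 without tDNA replicate 1. L1L, a regulator of embryo maturation related to LEC1, fell 2.2-fold (−1.14 ± 0.18, adjusted p = 0.0200), while ABI5, a bZIP factor of abscisic acid signalling in the seed, rose 1.80-fold (0.85 ± 0.14, adjusted p = 0.0214), and the other 13 of 15 maturation regulators did not pass. Among maturation regulators, 2 passed as higher and 5 as lower without tDNA replicate 0, and 4 and 4 without tDNA replicate 1. In the storage list without tDNA replicate 0, 2 genes passed as higher and 3 as lower, and without tDNA replicate 1 the counts were 3 and 4.

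Several genes of fat mobilisation rose and none fell. Of 17 genes that break down stored fat, from lipases to the glyoxylate cycle, 8 rose, with a median of 0.71, and both tDNA libraries lay above both Col-0 libraries for 16. Without tDNA replicate 0, 15 passed as higher, and without tDNA replicate 1, 10. ACX2, an acyl-CoA oxidase for long chains, had 90.6 and 127 CPM in the tDNA libraries, against 51.3 and 48.7 CPM in the Col-0 libraries and 76.2 CPM in the library under both labels, and rose 2.18-fold (1.12 ± 0.20, adjusted p = 0.0255). ACX3, the oxidase for medium chains, rose 2.03-fold (1.02 ± 0.15, adjusted p = 0.0187). For the glyoxylate cycle enzymes malate synthase (MLS) and isocitrate lyase (ICL), the library under both labels lay below the Col-0 libraries (73.0 and 311 CPM), while MLS had 340 and 342 CPM and ICL 837 and 852 CPM in the tDNA libraries, against 93.7 and 92.5 CPM for MLS and 385 and 399 CPM for ICL in the Col-0 libraries. In the library under both labels ACX2 and ACX3 were thus between the groups, while MLS and ICL were not.

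The lists were chosen with earlier results of these data known, so their ranking is no test. Genes known to rise in darkness or when sugar runs low were the list with the largest share of calls. Of 18 tested, 14 rose and 1 fell, with a median of 1.21. SEN5, a senescence- and dark-induced gene, had 1177 and 1158 CPM in the tDNA libraries, against 219 and 217 CPM in the Col-0 libraries and 174 CPM in the library under both labels. It rose 5.35-fold (2.42 ± 0.17, adjusted p = 0.00849) and was nearly equal in the libraries of each pair. DIN9, a phosphomannose isomerase named for its induction in the dark, rose 3.86-fold (1.95 ± 0.17, adjusted p = 0.00952). TPS11 and TPS8, members of the trehalose phosphate synthase family of class II, rose 4.01-fold and 3.66-fold (adjusted p = 0.00985 for both), and TPS11 had 94.6 and 117 CPM in the tDNA libraries, against 29.0 and 23.8 CPM in the Col-0 libraries and 63.3 CPM in the library under both labels. ASN1, the asparagine synthetase induced by low sugar, had 112 and 150 CPM in the tDNA libraries, against 15.6 and 7.12 CPM in the Col-0 libraries and 32.2 CPM in the library under both labels. The gene that fell was GDH1, a mitochondrial glutamate dehydrogenase, while its relative GDH2 rose (−0.73 and 1.06), both named after their values were seen. The medians of the list relative to Col-0 were 1.05 in tDNA replicate 0, 1.27 in tDNA replicate 1 and 0.44 in the library under both labels.

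Several starch genes fell, and sucrose-cleaving enzymes split by isoform. Of 26 starch genes, 5 fell and none rose (median −0.30). As lower and higher, 9 and 4 passed without tDNA replicate 0, and 13 and 1 without tDNA replicate 1. SBE2.2, a starch branching enzyme, had 44.2 and 50.03 CPM in the tDNA libraries, against 90.2 and 92.5 CPM in the Col-0 libraries and 67.6 CPM in the library under both labels, and fell 1.94-fold (−0.96 ± 0.14, adjusted p = 0.0185). APL4, a large subunit of ADP-glucose pyrophosphorylase, fell 3.76-fold (−1.91 ± 0.30, adjusted p = 0.0210), and PHS1, the plastid starch phosphorylase, fell 1.84-fold (−0.88 ± 0.15, adjusted p = 0.0256). Of 17 genes of sucrose breakdown and transport, 5 rose and 1 fell. The sucrose synthases SUS1 and SUS3 rose 1.93-fold and 1.80-fold (adjusted p = 0.0300 and 0.0259), whereas SUS2 fell 1.82-fold (−0.86 ± 0.18, adjusted p = 0.0389), with 416 and 485 CPM in the tDNA libraries, against 779 and 858 CPM in the Col-0 libraries and 527 CPM in the library under both labels. VINV1, a vacuolar invertase, rose 2.01-fold (1.01 ± 0.17, adjusted p = 0.0228). In the sucrose list, 8 passed as higher and 5 as lower without tDNA replicate 0, and 7 and 3 without tDNA replicate 1.

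Late maturation genes were high in both tDNA libraries and low in the library under both labels. Of 21 genes for late embryogenesis abundant proteins and other desiccation products, 9 rose and none fell, with a median of 1.11, and both tDNA libraries lay above both Col-0 libraries for 18. Without tDNA replicate 0, 15 passed as higher and without tDNA replicate 1, 19. The medians relative to Col-0 were 1.45 in tDNA replicate 0, 0.64 in tDNA replicate 1 and −1.10 in the library under both labels. RAB18, a dehydrin induced by abscisic acid, had 1744 and 1290 CPM in the tDNA libraries, against 447 and 454 CPM in the Col-0 libraries and 255 CPM in the library under both labels, and rose 3.37-fold (1.75 ± 0.22, adjusted p = 0.0140). LEA25 rose 3.34-fold (1.74 ± 0.19, adjusted p = 0.0111) and M10, a small hydrophilic late embryogenesis abundant protein, rose 7.19-fold (2.85 ± 0.25, adjusted p = 0.00952). AT3G53040, another gene of this family, rose 2.76-fold (1.47 ± 0.20, adjusted p = 0.0166). GOLS1, a galactinol synthase for raffinose sugars, rose 2.3-fold (1.2 ± 0.17, adjusted p = 0.0166), with the library under both labels at 47.5 CPM beside 92.9 and 84.4 CPM in the tDNA libraries and 42.9 and 34.2 CPM in the Col-0 libraries.

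Of 17 genes of abscisic acid synthesis and response, 4 rose and none fell, with a median of 0.42. HAI2, a protein phosphatase of group A that is itself induced by the hormone, had 28.2 and 28.1 CPM in the tDNA libraries, against 10.4 and 10.9 CPM in the Col-0 libraries and 22.2 CPM in the library under both labels, and rose 2.64-fold (1.4 ± 0.14, adjusted p = 0.0105). The phosphatases ABI1 and HAI3 rose 2.36-fold and 2.16-fold (adjusted p = 0.0432 and 0.0386), and AAO3, the aldehyde oxidase of the last step of hormone synthesis, rose 1.73-fold (0.79 ± 0.16, adjusted p = 0.0384). Without tDNA replicate 0, 9 passed as higher and 2 as lower, and without tDNA replicate 1, 8 and 2. Factors of the ABI5 type bind the abscisic acid response element, whose core is ACGTG. On both strands of the 250 bases before the gene start, this core was present in 20 of 21 late maturation genes (95.2%), in 27.8% of the low sugar genes and in 22.9% of 27443 protein-coding genes, in RefSeq sequence of TAIR10.1. Of the other lists searched, it was in 57.7% of clock, 46.2% of starch, 26.3% of fatty acid synthesis, 23.5% of fat mobilisation and 13.3% of pyruvate supply genes. The abscisic acid list was not searched. Capitals below mark each match on either strand. The promoters shown are those of 3 late maturation genes that rose and of HAI2, chosen because they hold 2 to 5 matches. They run 5′ to 3′ in the direction of the gene, at chr5:26519448-26519697 (minus strand) for RAB18, chr2:17716913-17717162 (minus strand) for LEA25, chr2:17209447-17209696 (plus strand) for M10 and chr1:2282829-2283078 (minus strand) for HAI2.
RAB18: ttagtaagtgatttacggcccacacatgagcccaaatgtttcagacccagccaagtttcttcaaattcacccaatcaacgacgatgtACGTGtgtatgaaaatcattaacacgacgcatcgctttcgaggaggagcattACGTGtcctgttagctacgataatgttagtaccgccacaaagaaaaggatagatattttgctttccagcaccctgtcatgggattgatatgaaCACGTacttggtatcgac
LEA25: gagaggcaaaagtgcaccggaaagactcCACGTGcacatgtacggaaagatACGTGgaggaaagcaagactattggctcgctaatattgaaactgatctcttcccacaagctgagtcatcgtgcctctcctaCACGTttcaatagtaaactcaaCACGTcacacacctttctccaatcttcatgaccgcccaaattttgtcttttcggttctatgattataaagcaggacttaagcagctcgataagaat
M10: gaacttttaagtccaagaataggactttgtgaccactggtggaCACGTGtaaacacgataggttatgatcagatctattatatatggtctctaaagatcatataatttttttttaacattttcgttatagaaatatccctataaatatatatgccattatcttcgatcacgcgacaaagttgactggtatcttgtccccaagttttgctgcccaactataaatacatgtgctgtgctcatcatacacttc
HAI2: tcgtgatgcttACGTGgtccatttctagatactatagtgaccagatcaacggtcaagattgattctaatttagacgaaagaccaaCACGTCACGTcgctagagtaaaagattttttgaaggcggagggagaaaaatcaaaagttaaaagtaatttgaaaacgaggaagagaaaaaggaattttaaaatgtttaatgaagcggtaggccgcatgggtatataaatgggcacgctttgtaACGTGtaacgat
Counted over both strands, RAB18 holds 3 matches, LEA25 5, M10 2 and HAI2 4. The 2 matches in M10 are the 2 strands of a single CACGTG, and so are 2 of the 5 in LEA25. Of the late maturation genes that did not pass, 91.7% hold the core too, so its presence does not separate the genes that passed from those that did not. The RY repeat (CATGCA), bound by the B3 factors of seed maturation, was in 23.8% of the late maturation genes and 8.43% of all genes. The WRI1 binding motif known as the AW-box (CNTNGNNNNNNNCG) was in 2 of 19 fatty acid synthesis genes (10.5%), 3 of 15 pyruvate supply genes (20%), 7 starch genes (26.9%), 6 late maturation genes (28.6%) and 9.3% of all genes.

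**Figure D3:**
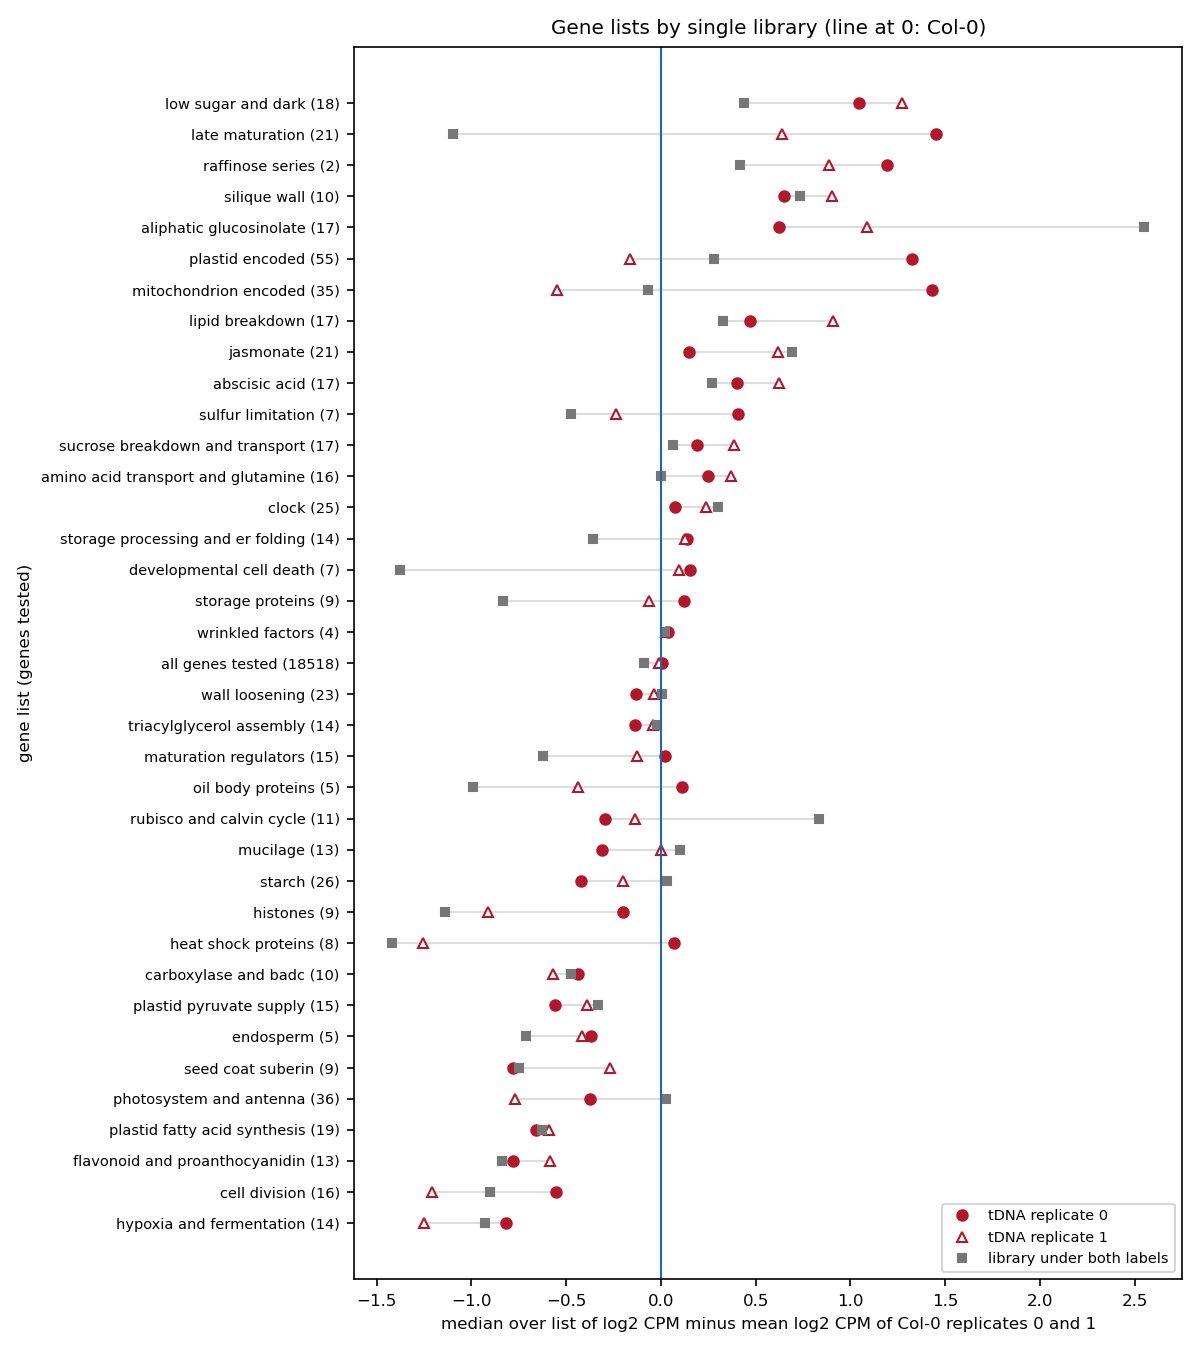
Median over each gene list (y axis, with the number of genes tested, list of all genes included) of log2 CPM in 1 library minus the mean log2 CPM of Col-0 replicates 0 and 1 (x axis), for tDNA replicate 0 (filled circles), tDNA replicate 1 (open triangles) and the library under both labels (grey squares). The tDNA libraries lie on the same side of 0 for the low sugar (1.05 and 1.27) and late maturation genes (1.45 and 0.64), and on opposite sides for the plastid-encoded genes (1.32 and −0.16), while the library under both labels is at −1.10 for late maturation.

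Several hypoxia genes and several wall-loosening genes fell. Of 14 genes of the core low-oxygen response and fermentation, 7 fell and none rose, with a median of −1.16. Positive log2 fold changes, none of which passed, were seen for 5 of the 14. ACO1, which makes ethylene from its precursor, had 10.7 and 8.01 CPM in the tDNA libraries, against 40.7 and 41.9 CPM in the Col-0 libraries and 13.8 CPM in the library under both labels, and fell 4.40-fold (−2.14 ± 0.18, adjusted p = 0.00952). RBOHD, an NADPH oxidase of the plasma membrane, fell 2.72-fold (−1.44 ± 0.14, adjusted p = 0.0103), but with 41.2 CPM the library under both labels lay near the 47.5 and 52.2 CPM of Col-0 rather than the 17.64 and 18.98 CPM of the tDNA libraries. Of 23 genes of wall loosening, 7 fell and 2 rose. XTH16, a xyloglucan endotransglucosylase, had 5.47 and 5.14 CPM in the tDNA libraries, against 66.2 and 63.0 CPM in the Col-0 libraries and 23.4 CPM in the library under both labels, and fell 12.2-fold (−3.60 ± 0.15, adjusted p = 0.00576). EXO, a cell wall protein needed for cell expansion, fell 6.13-fold (−2.62 ± 0.17, adjusted p = 0.00849). In the wall list, 8 passed as lower and 6 as higher without tDNA replicate 0, and 7 and 3 without tDNA replicate 1. XTH4 and XTH18 of the same enzyme family rose (2.11 and 2.46), both named after their values were seen.

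Several seed coat genes fell, and hydrolases of the mucilage list rose. Of 13 genes of flavonoid and tannin synthesis, 7 fell and none rose, with a median of −0.71. F3H, the flavanone hydroxylase, had 31.0 and 30.9 CPM in the tDNA libraries, against 73.8 and 71.7 CPM in the Col-0 libraries and 41.5 CPM in the library under both labels, and fell 2.35-fold (−1.23 ± 0.13, adjusted p = 0.0109). TT4, the chalcone synthase at the start of the pathway, fell 2.56-fold (−1.35 ± 0.16, adjusted p = 0.0134), and BAN, the anthocyanidin reductase of tannin synthesis, fell 2.76-fold (−1.47 ± 0.26, adjusted p = 0.0257). FAR5, a fatty alcohol-forming reductase of suberin, fell 2.26-fold (−1.18 ± 0.16, adjusted p = 0.0166), and it and the regulator MYB9 were the 2 of 9 suberin genes that fell. Among 13 mucilage genes, MUM4, a rhamnose synthase, and the regulator MYB5 fell, and the hydrolases BXL1 and MUM2 rose. BXL1, a xylosidase and arabinosidase, had 405 and 595 CPM in the tDNA libraries, against 140 and 148 CPM in the Col-0 libraries and 582 CPM in the library under both labels, and rose 3.47-fold (1.80 ± 0.23, adjusted p = 0.0144). Leaving tDNA replicate 0 out, 4 suberin genes passed as lower and 1 as higher, and 4 mucilage genes as lower and 3 as higher. Without tDNA replicate 1, 5 suberin genes passed as lower, and 3 mucilage genes as lower and 2 as higher. Of the silique wall markers, which are factors of fruit patterning, SHP2 and FIL fell (−1.14 and −0.78) and RPL and IND rose (0.79 and 1.53), and 6 passed as higher and 2 as lower without tDNA replicate 0, and 4 and 2 without tDNA replicate 1. The list's median was 0.93, both tDNA libraries lay above both Col-0 libraries for 7 of 10 markers, and its medians relative to Col-0 were 0.65 in tDNA replicate 0, 0.90 in tDNA replicate 1 and 0.74 in the library under both labels. The part of fruit tissue in the other results was not tested. IND, a factor of the fruit's opening zone, had 5.27 and 6.72 CPM in the tDNA libraries, against 2.52 and 1.65 CPM in the Col-0 libraries and 16.5 CPM in the library under both labels. TWS1, a peptide signal of the embryo surface kept in the endosperm list, fell 3.21-fold (−1.68 ± 0.27, adjusted p = 0.0212) and was the 1 of 5 tested there to pass.

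Several jasmonate repressors and clock genes rose. Of 21 jasmonate genes, 4 rose and 1 fell. The 4 were JAZ proteins, repressors that the hormone induces. JAZ10 had 25.7 and 25.3 CPM in the tDNA libraries, against 9.88 and 10.8 CPM in the Col-0 libraries and 14.4 CPM in the library under both labels, and rose 2.46-fold (1.3 ± 0.15, adjusted p = 0.0121), and JAZ8 rose 3.12-fold (1.64 ± 0.23, adjusted p = 0.0164). AOC3, an allene oxide cyclase of hormone synthesis, fell 4.15-fold (−2.05 ± 0.33, adjusted p = 0.0213). Among jasmonate genes without tDNA replicate 0, 13 passed as higher and 1 as lower, and without tDNA replicate 1, 8 and 2. Of 25 clock genes, 4 rose and 1 fell. BOA, a relative of LUX, rose 1.86-fold (0.89 ± 0.15, adjusted p = 0.0228), ELF3 of the evening complex rose 1.62-fold (0.69 ± 0.14, adjusted p = 0.0366) and the MYB-like factor RVE8 rose 1.99-fold (0.99 ± 0.19, adjusted p = 0.0298). Without tDNA replicate 0, 10 clock genes passed as higher and 3 as lower, and without tDNA replicate 1, 7 and 1. The hour of harvest is not given in the labels, and its part in these values was not tested.

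Genes of the antenna and photosystems, and of cell division, had negative medians, and some of them fell. Of 36 photosystem and antenna genes, 35 had negative log2 fold changes, 4 passed as lower and none as higher (median −0.54). LHCB2.2, a light-harvesting protein of photosystem II, had 27.1 and 22.2 CPM in the tDNA libraries, against 52.4 and 59.2 CPM in the Col-0 libraries and 37.9 CPM in the library under both labels, and fell 2.27-fold (−1.18 ± 0.16, adjusted p = 0.0163). As a list, the 36 genes had a median of 0.03 relative to Col-0 in the library under both labels, and 19 of them lay above the Col-0 mean there. With tDNA replicate 0 left out, 31 passed as lower and without tDNA replicate 1, 22. Of 16 cell division genes, 3 fell and none rose (median −1.0). PLE, a microtubule-bundling protein of cytokinesis, fell 1.82-fold (−0.87 ± 0.17, adjusted p = 0.0315), and the cyclin CYCA1;1 fell 3.00-fold (−1.59 ± 0.32, adjusted p = 0.0364) at levels of 1.32 and 1.38 CPM in the tDNA libraries, against 3.73 and 4.43 CPM in the Col-0 libraries. Among cell division genes, 11 passed as lower without tDNA replicate 0 and 4 without tDNA replicate 1. None of 9 histone, 11 Calvin cycle or 7 sulfur limitation genes passed. Their medians relative to Col-0 in the library under both labels were −1.14, 0.83 and −0.48, and 10 of the 11 Calvin cycle genes lay above the Col-0 mean there. Without tDNA replicate 0 these lists had 7, 3 and 3 genes called lower and 0, 0 and 1 called higher, and without tDNA replicate 1 they had 1, 5 and 0 called lower and 0, 0 and 3 called higher.

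Glucosinolate genes had their highest median in the library under both labels. Of 17 genes of aliphatic glucosinolate synthesis, 1 rose and 1 fell, and 16 had positive values, with medians relative to Col-0 of 0.62 in tDNA replicate 0, 1.08 in tDNA replicate 1 and 2.55 in the library under both labels. CYP79F2, which starts the pathway from elongated methionine, had 21.9 and 24.8 CPM in the tDNA libraries, against 11.2 and 6.86 CPM in the Col-0 libraries and 50.7 CPM in the library under both labels, and rose 2.59-fold (1.37 ± 0.25, adjusted p = 0.0283). MYB28, the regulator of the pathway, had 15.9 and 32.3 CPM in the tDNA libraries, against 9.97 and 5.04 CPM in the Col-0 libraries and 83.9 CPM in the library under both labels (1.69 ± 0.44, adjusted p = 0.0607). Among glucosinolate genes, 10 passed as higher and 1 as lower without tDNA replicate 0, and 2 and 1 without tDNA replicate 1. BZO1, which activates benzoate for seed glucosinolates, fell 1.65-fold (−0.72 ± 0.16, adjusted p = 0.0449). Of 16 genes of amino acid transport and glutamine, the exporters UMAMIT24 and UMAMIT28 fell (−0.81 and −0.71, adjusted p = 0.0221 and 0.0315). In this transport list, 7 passed as higher and 2 as lower without tDNA replicate 0, and 2 and 3 without tDNA replicate 1. AAP2, an amino acid importer, had 46.4 and 47.0 CPM in the tDNA libraries, against 31.0 and 17.5 CPM in the Col-0 libraries and 175 CPM in the library under both labels, and did not pass (0.95 ± 0.27, adjusted p = 0.0723).

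The 2 tDNA libraries differed from each other mainly in 1 direction. Of 15197 loci with a mean of at least 2 CPM, 134 were more than 4-fold higher in tDNA replicate 0 than in tDNA replicate 1 and 1 was more than 4-fold lower, whereas none differed more than 4-fold either way between the Col-0 libraries. By RefSeq product name, the 5 loci with the highest ratio encode cysteine-rich, defensin-like or thionin family proteins. AT3G16895 had 451 CPM in tDNA replicate 0 and 0 in tDNA replicate 1, against 1.12 and 0.434 CPM in the Col-0 libraries and 0.154 CPM in the library under both labels. AT3G48231 had 296 CPM in tDNA replicate 0 and 0.494 in tDNA replicate 1, AT5G44973 had 286 and 3.66 CPM, AT5G40155 had 146 and 0.692 CPM and AT1G53282 had 105 and 0.297 CPM in the same order. None of these 5 passed the test (lowest adjusted p = 0.108). The 5 loci with the lowest ratio were M17, RLP47, AT1G33590, AT5G65730 and AT1G68600. M17, a small protein gene next to M10, had 6.18 CPM in tDNA replicate 0 and 33.3 CPM in tDNA replicate 1, against 3.54 and 1.82 CPM in the Col-0 libraries and 3.00 CPM in the library under both labels.

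The RefSeq product names of 287 genes mark a cysteine-rich, defensin-like, thionin or SCR-like peptide, called cysteine-rich peptides here. This group was chosen after the values were seen, and 150 of its genes were at 0 in all 5 libraries. Of the 31 with a mean of at least 2 CPM in the Col-0 libraries, a filter that does not use the tDNA libraries, 16 were more than 4-fold higher in tDNA replicate 0 than in tDNA replicate 1 and none was more than 4-fold lower. Their median was 63.5 CPM in tDNA replicate 0 and 4.35 CPM in tDNA replicate 1, against 19.2 and 19.0 CPM in the Col-0 libraries and 5.14 CPM in the library under both labels. In the median the Col-0 libraries lay between the tDNA libraries. Organelle transcripts were also high in tDNA replicate 0. All 55 plastid-encoded and all 35 mitochondrial loci tested were higher there than in tDNA replicate 1, with medians relative to Col-0 of 1.32 and −0.16 for plastid loci and 1.43 and −0.55 for mitochondrial loci in tDNA replicates 0 and 1, and none passed. Without tDNA replicate 1, 51 of the plastid and 27 of the mitochondrial loci passed as higher and none as lower, whereas without tDNA replicate 0, 1 plastid locus passed as higher, and 2 plastid and 3 mitochondrial loci as lower. A nuclear ribosomal RNA locus, AT2G01021, took 2.90% and 0.528% of fragments in the tDNA libraries, against 0.579% and 1.2% in the Col-0 libraries and 0.819% in the library under both labels. The part of ribosomal and organelle RNA in the difference between the tDNA libraries was not tested. Of 8 heat shock genes 1 fell, while 6 passed as lower and none as higher without tDNA replicate 0, and 2 and 3 without tDNA replicate 1, and their medians were 0.07 in tDNA replicate 0, −1.25 in tDNA replicate 1 and −1.42 in the library under both labels.

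**Figure D4:**
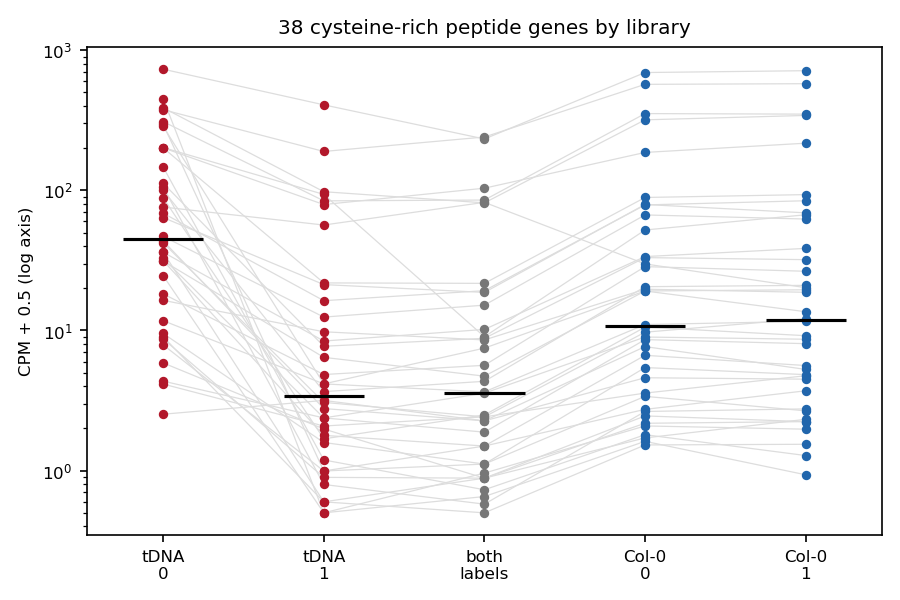
CPM + 0.5 (y axis, log scale) of 38 cysteine-rich peptide genes with a mean of at least 2 CPM over the 2 tDNA and 2 Col-0 libraries, a filter that some pass through tDNA replicate 0 alone, in each distinct library (x axis), with 1 point per gene, grey lines joining a gene and a black bar at each median. The medians are 44.8 CPM in tDNA replicate 0 and 2.92 CPM in tDNA replicate 1, against 10.3 and 11.4 CPM in the Col-0 libraries.

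**Figure D5:**
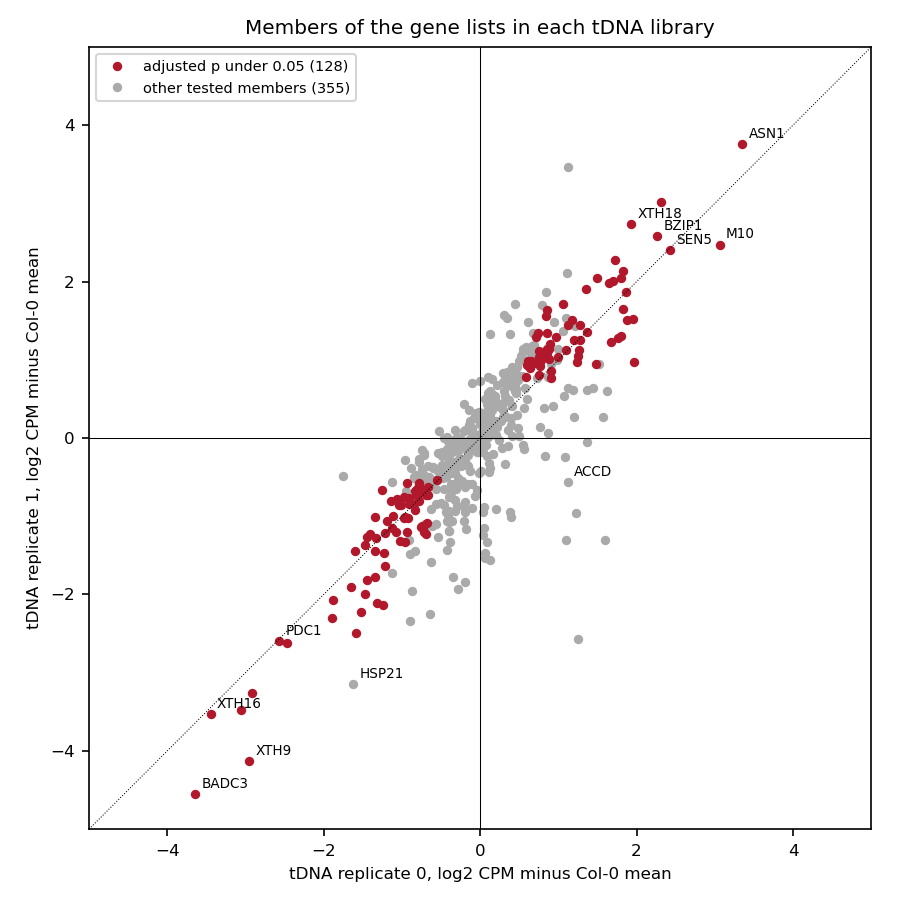
Log2 CPM minus the Col-0 mean in tDNA replicate 0 (x axis) and in tDNA replicate 1 (y axis) for the 483 tested members of the gene lists, with the 128 that passed an adjusted p of 0.05 in red and the other 355 in grey; the dotted line marks equal values. BADC3, XTH16 and PDC1 lie low and ASN1, SEN5 and M10 high in both libraries.

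Over all called loci the library under both labels lay nearer to the tDNA mean at some and nearer to the Col-0 mean at others. It lay nearer to the tDNA mean, or beyond it, for 59.4% of the loci called higher and 65.9% of those called lower. The share over all loci tested was 63.9%. That share is no baseline, because where the groups hardly differ a small shift puts the library beyond either mean. The medians of this library relative to Col-0 were 0.72 for the loci called higher and −0.74 for those called lower. The tDNA libraries had 1.0 and 1.16 for the higher and −1.03 and −1.09 for the lower. In the median the library under both labels thus lay between the groups, nearer to the tDNA libraries. Single loci were spread more widely. Of the 967 loci called higher, it lay beyond the Col-0 mean, on the side away from tDNA, at 241 and beyond the tDNA mean at 334. Of the 944 called lower, these counts were 39 and 184.

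The second set of the series compared AtBD, also labelled a badc1/badc3 double knockout, with AtWT, wild type, with 3 libraries each. It came from another table and another counter. The labels do not say whether these plants carry the study's tagged RPL18 transgene. BADC3 was lower there than here. For BADC1 the sets cannot be compared directly, because here it was counted only as part of the merged locus. Loci called higher here were positive there no more often than all loci were. Those called lower here were negative there no more often than all loci were. BADC3 had 0.154, 0.0792 and 0.697 CPM in AtBD libraries, against 82.1, 67.6 and 67.7 CPM in AtWT libraries. BADC1, counted there apart from its neighbour, had 1.65, 2.61 and 1.61 CPM in AtBD libraries, against 80.0, 65.8 and 66.3 CPM in AtWT libraries. The neighbour AT3G56140 had 6.92, 9.58 and 3.88 CPM in AtBD libraries, against 11.6, 5.32 and 9.19 CPM in AtWT libraries. BADC2 had 167, 171 and 163 CPM in AtBD libraries, against 162, 132 and 117 CPM in AtWT libraries. Of 892 loci called higher here and counted there, 49.2% had a positive log2 ratio of AtBD over AtWT, beside 49.9% of all 16628 loci, and of 876 called lower 42.4% had a negative one, beside 48.9% of all. The medians there were −0.01 for the low sugar genes, 0.19 for late maturation, 0.10 for fatty acid synthesis, −0.06 for fat mobilisation and −0.11 for hypoxia. Photosystem and antenna genes had medians of −0.54 here and −0.49 there, and cell division genes −1.0 here and −1.11 there. Medians were also negative in both sets for Calvin cycle (−0.13 and −0.49), mucilage (−0.19 and −0.57), flavonoid (−0.71 and −0.04), suberin (−0.51 and −0.13), histone (−0.36 and −0.10) and wall-loosening genes (−0.05 and −0.06). Beside late maturation, they were positive in both for glucosinolate (0.78 and 0.48), storage protein (0.10 and 0.58), abscisic acid (0.42 and 0.09) and silique wall genes (0.93 and 0.07). The same held for jasmonate (0.53 and 0.05), amino acid transport (0.29 and 0.065), clock (0.15 and 0.20) and WRI genes (0.03 and 0.20). It also held for plastid-encoded (0.72 and 0.21) and mitochondrial loci (0.72 and 0.42). Apart from hypoxia, the remaining lists had medians of opposite sign. WRI1 was at −1.63 here and 0.20 there, GPT2 at −3.27 and 1.07, SEN5 at 2.42 and −0.46, RAB18 at 1.75 and 0.46, and AT2G23400 at −6.38 and −1.50. The difference between the sets was not tested, since the sets come from separate tables.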

How the data were processed

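Polyadenylated RNA of developing seeds was sequenced. For the first set the authors deposited, per locus and library, fragments, which are expected counts (estimates that need not be whole and are not scaled), and FPKM, per the file headers. TopHat, Cufflinks, Cuffdiff and TAIR10 are named in the submitters' processing notes. For the second set the authors deposited counts per gene, used here as CPM without a test. Deposited locus identifiers were checked against their neighbours, and 30386 of 33201 loci kept 1 identifier, while 327 merge several genes. The 13 loci without an estimate in a library were left out.

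Fragments were rounded, filtered with filterByExpr, scaled by TMM and tested with the quasi-likelihood test of edgeR 4.0.16 in R 4.3.3 on 2 tDNA and 2 Col-0 libraries, with a Benjamini-Hochberg adjusted p under 0.05. CPM and fold changes are on the scale of these 4 libraries. A value is log2(CPM + 0.5) where libraries are compared singly. Named were the carboxylase list, the 10 largest rises and falls whose mean log2 CPM reached 2 and whose groups did not overlap, the 4 members of each list with the smallest p, and the 5 loci with the highest and the 5 with the lowest ratio between the tDNA libraries. The members and the lists were chosen with earlier results of these data known. Alternatives were RLE scaling, DESeq2 1.42.0, other filters, limma 3.58.1 on log2(FPKM + 1) and log2(FPKM + 0.1), the replicate number as a block, each library left out and replicate 2 kept. The p-values measure the spread between these libraries, which may be technical. The counter's use of strand is not given in the sources used here, so reads of overlapping and antisense genes, and of near-identical copies, may not be told apart. The pipeline was tested on simulated data.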

Additional observations from a re-analysis of the deposited data

How the results depend on the processing

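The count of 1911 loci became 0 with all 6 libraries, 0 without tDNA replicate 2 alone, 0 without Col-0 replicate 2 alone, 606 with log2(FPKM + 1), 555 with log2(FPKM + 0.1), 0 with log2(FPKM + 1) and no filter (4558 at an unadjusted p under 0.05, limma), 1150 with a log2 fold change of at least 1 asked as well, and 0 to 7444 when 1 library was left out. RLE scaling gave 1915, DESeq2 1998, no filter 1313, the filter at 1 CPM 2051 and keeping the loci that lack an estimate 1912. Replicate numbers did not pair the libraries (correlation of deviations of same-numbered libraries −0.18). With the replicate block 286 loci passed, 284 of them among the 1911, and 40 of the 103 named called genes. With the numbers crossed, an alternative chosen after seeing the data like the one on loci that lack an estimate, 4298 passed. BADC3 was at −1.70 with all 6 libraries (adjusted p = 0.809), −4.04 without tDNA replicate 2 alone (0.0597), −1.79 without Col-0 replicate 2 alone (0.350) and −3.90 with log2(FPKM + 1) and no filter (0.108), and at −4.75 to −3.75 with 1 library left out. The BADC1 locus was at −0.81 (0.809), −1.56 (0.0690), −0.77 (0.376) and −1.87 (0.108) in the same settings, and at −1.63 to −1.45 with 1 library left out. IND reversed to −0.27 and CYP79F2 to −0.032 without tDNA replicate 2 alone, where the library under both labels counts as Col-0. DESeq2 passed 97 of the 103. The cause of these changes was not tested.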
